A study of Mus musculus with 12 samples.

Results

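The genes described here were the 9 members of the interleukin 17, 22 and 23 axis that were chosen by symbol: the ligands Il17a, Il17f and Il22, the receptor chains Il17ra, Il22ra1 and Il23r, the soluble receptor Il22ra2, and the 2 chains of interleukin 23, Il23a and Il12b. All 9 were found once among the 54532 genes counted in each library, and 7 of them passed the low-count filter and were tested among 17658 genes. Il23r and Il12b did not pass it and are given as levels, with a fit that used no filter. RNA of the colon from 12 male C57BL/6 mice was sequenced, 3 mice in each of 4 groups. The Con group received no DSS and no UA, and both it and the DSS group were gavaged with vehicle. The DSS group drank dextran sulfate sodium, a polymer that injures the colon epithelium, at 3% (w/v) for 5 days. The UA+DSS group received the same DSS and ursolic acid (UA), a triterpenoid of plants. Its dose was 200 mg/kg by gavage for 7 days, starting 24 hours before DSS, and the DSS+UA group received it for 4 days from 3 days after DSS began. The mice were 6 weeks old on arrival, no allele or transgene is named for any group, and the 3 mice of a group were those sequenced out of 8.

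Interleukin 23 is a pair of chains, p19 from Il23a and p40 from Il12b, that myeloid cells release and that acts on lymphocytes carrying Il23r. Such lymphocytes, among them Th17 cells, gamma delta T cells and group 3 innate lymphoid cells, are the main sources of IL-17A, IL-17F and IL-22. IL-17A and IL-17F signal through Il17ra paired with Il17rc and drive chemokines and granulopoietic factors, whereas IL-22 signals in epithelial cells through Il22ra1 paired with Il10rb, and Il22ra2 encodes a soluble receptor that binds IL-22 without signalling. In the colon the axis is known for barrier repair and antimicrobial defence, and for its part in inflammation.

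The regulatory stretches of the 3 lymphocyte cytokines are printed because these genes were the members whose levels were most alike across the libraries. RefSeq gave a start site (GRCm38.p6) for 6 of the 9 members, and Il17ra, Il22ra2 and Il23a were not matched. Each line gives the 200 bases before the start site, 5′ to 3′, and capitals mark TATAAA or AGGTCA on either strand, so that TGACCT is AGGTCA read on the opposite strand. The stretches are chr1:20730705-20730904 on the plus strand for Il17a, chr1:20784271-20784470 on the minus strand for Il17f and chr10:118204764-118204963 on the plus strand for Il22. GENCODE counts no base of the first and second as exon, and 22 of the third.
Il17a: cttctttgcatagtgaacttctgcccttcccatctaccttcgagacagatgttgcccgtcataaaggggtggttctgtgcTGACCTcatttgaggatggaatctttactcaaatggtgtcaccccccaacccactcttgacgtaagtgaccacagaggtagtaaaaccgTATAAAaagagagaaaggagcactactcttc
Il17f: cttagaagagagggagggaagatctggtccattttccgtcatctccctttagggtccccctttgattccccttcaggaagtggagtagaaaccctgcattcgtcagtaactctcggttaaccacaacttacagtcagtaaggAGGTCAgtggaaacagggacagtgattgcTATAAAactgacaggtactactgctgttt
Il22: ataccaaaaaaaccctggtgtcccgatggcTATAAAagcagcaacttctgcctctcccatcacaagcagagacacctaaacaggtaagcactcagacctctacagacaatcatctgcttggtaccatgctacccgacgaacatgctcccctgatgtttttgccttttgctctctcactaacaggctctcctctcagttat
Over windows of 300 bases, 250 before and 50 after the start, TATAAA lay in those of Il17a, Il17f and Il22 and in 13.6% of all 32851 RefSeq promoters. Its first base lay 31 bases before the start of Il17a, 29 before that of Il17f and 170 before that of Il22. The hexamer AGGTCA, letters that nuclear receptors bind, lay in the windows of Il17a, Il17f and Il23r, and in 16.3% of all promoters. It began 120 bases before the start of Il17a and 58 before that of Il17f. The letters TGANTCA, an AP-1 spelling, were in the windows of Il17a and Il22ra1 and in 7.81% of all. The STAT spelling TTCNNNGAA was in none of the 6 windows and in 8.30% of all. These are matches of letters and not sites of binding. TATAAA does not overlap AGGTCA in the stretches printed.

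Il22 has a near-identical neighbour on the same chromosome, Iltifb, and this bears on every Il22 value. Of the stretches of 50 bases in Il22 transcripts, 41.0% were also found in Iltifb. The coding sequences of both genes were 537 bases long and differed at 9 of them, an identity of 98.3%. Bases 98 to 217 of the coding sequence, from GENCODE transcripts of GRCm38, hold 5 of the 9 differences, which are in capitals.
Il22: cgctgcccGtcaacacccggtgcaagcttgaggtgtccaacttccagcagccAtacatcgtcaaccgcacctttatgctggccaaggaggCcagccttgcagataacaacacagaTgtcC
Iltifb: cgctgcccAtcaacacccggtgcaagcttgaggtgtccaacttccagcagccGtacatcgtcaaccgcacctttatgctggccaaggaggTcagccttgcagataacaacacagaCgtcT
How reads that match both genes were counted is not given in the sources used here, so Il22 counts are uncertain to that extent. Iltifb had 5 counts in DSS 2, 1 in DSS+UA 1, 1 in DSS+UA 2 and 0 in the other libraries. Of the other members, Il17f shared 5.64% of its 50-base stretches with other genes, Il17ra 0.173% and the rest 0. No other gene of the annotation overlapped a member.

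Levels are CPM, read counts divided by the TMM-scaled library total and given per 1000000 reads. Total counts per library were 15566216 to 19498383, so that 1 count equalled 0.0480 to 0.0641 CPM. DSS 2 and DSS 3 stood apart. In DSS 3, transcripts of pancreatic acinar cells made up 1.43% of the counts, against 0.00326% to 0.0562% in the others, and in DSS 2 the neutrophil markers summed to 17907 CPM, against 884 and 977 in DSS 1 and DSS 3. Con 1 was set apart from Con 2 and Con 3 by homeobox genes that mark the position along the colon. The position score, the mean log2 CPM of 5 genes of the rectal end minus that of 6 genes of the caecal end, was 5.53 in Con 1 and -3.03 and -1.83 in the others. It was 0.367 to 3.10 in DSS, -5.70 to -4.16 in UA+DSS and 4.11 to 5.06 in DSS+UA, so that UA+DSS lay below and DSS+UA above all DSS libraries. The stretch of colon sampled cannot be told apart from UA against DSS, nor from the timing of UA. In bulk tissue, fewer cells of a type and less RNA per cell cannot be told apart either. The p-values measure the spread between these mice.

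A member was called changed where its adjusted p in edgeR's quasi-likelihood test was under 0.05 over all genes tested. In DSS against Con 3 of the 7 tested members were called, all of them raised, namely Il17ra, Il17f and Il22. Of all genes 26.5% were called in this comparison, 13.9% as raised and 12.6% as lowered. In UA+DSS against DSS, 1 of 7, Il17ra, was called and it was lowered, beside 18.7% of all genes (8.21% raised and 10.5% lowered). For DSS+UA against DSS, 0 of 7 were called by edgeR, beside 7.54% of all genes (2.54% raised and 5.0% lowered). DESeq2 called 1 member there, beside 3107 of all genes. The comparisons with DSS share its 3 libraries.

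**Figure D1:**
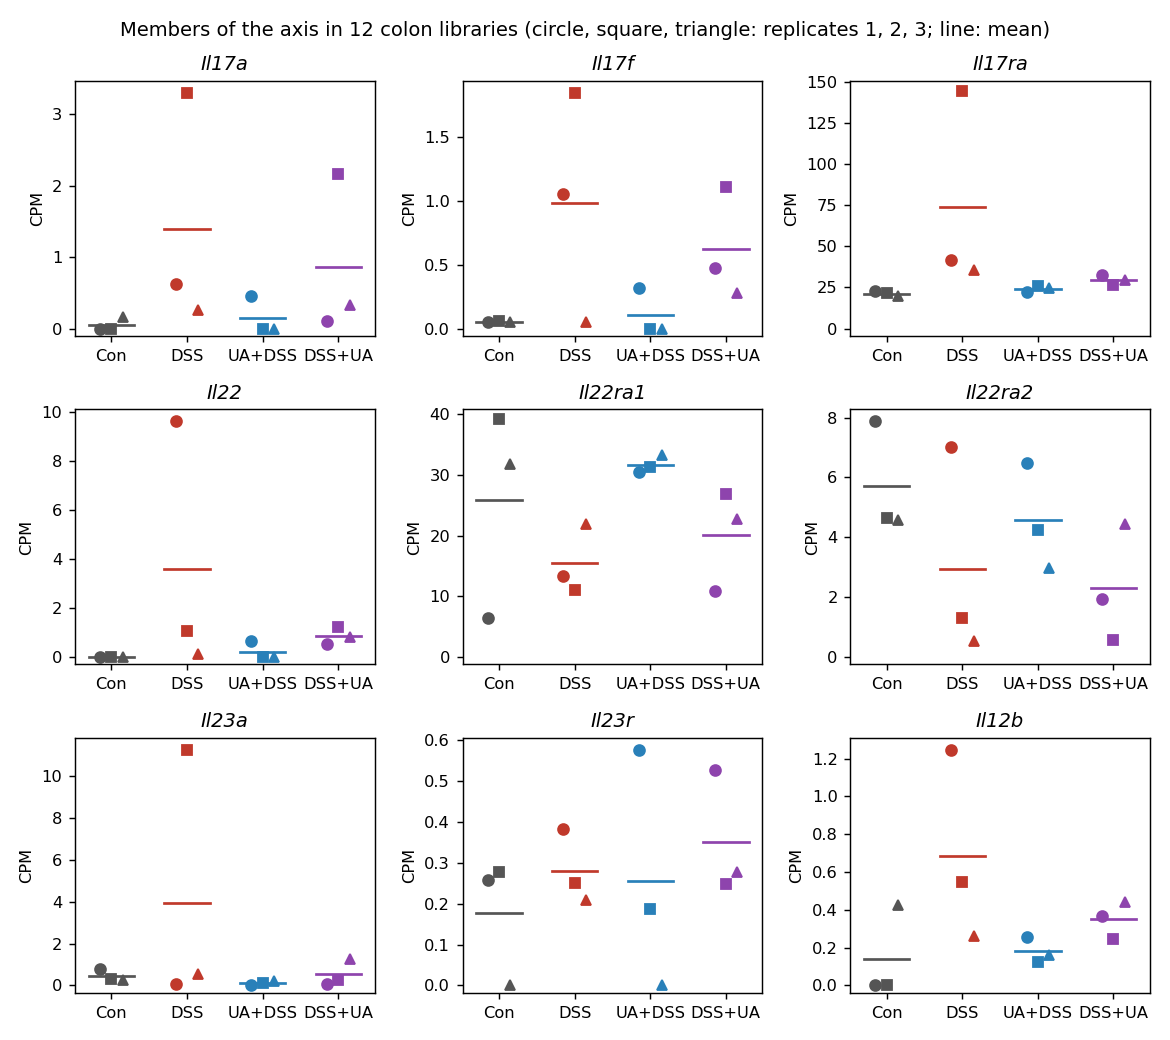
Level of each of the 9 members (CPM, linear axis, a scale of its own in each panel) in the 12 libraries, with symbols for replicates 1 to 3 and a line at the group mean. The DSS mean of Il17a, Il17ra and Il23a is set by the square of DSS 2 and that of Il22 by the circle of DSS 1, and the 3 UA+DSS points of Il22ra1 lie closest together.

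Il17ra, the receptor chain shared by IL-17A and IL-17F (ENSMUSG00000002897, chr6:120463247-120487559, plus strand), was the most precisely measured member and the one with the most stable call in DSS against Con. It stood at 22.6, 21.6 and 19.9 CPM in Con and at 41.9, 144 and 35.9 in DSS 1 to 3. In UA+DSS it was 22.6, 25.8 and 24.5 CPM, and in DSS+UA 32.8, 26.5 and 29.8. All 3 DSS libraries lay above all 9 others, and DSS 2 held 65.0% of the summed DSS level. The log2 fold change in DSS against Con was 1.80 (SE 0.43, edgeR adjusted p = 0.0133), and 14 of 15 alternatives called it. Without DSS 2 it was 0.86 (edgeR adjusted p = 0.00604), and in the fit of Con and DSS alone it was not called (edgeR adjusted p = 0.0746). Il17ra then fell in UA+DSS against DSS by 1.61 on the log2 scale (SE 0.43, edgeR adjusted p = 0.0279), to a level that overlapped Con, and 9 of 15 alternatives called it. Without DSS 2 this value was -0.68 (edgeR adjusted p = 0.0267). With the position score in the fit it was not called (edgeR adjusted p = 0.2205), nor in the fit of the 2 groups alone (edgeR adjusted p = 0.0962). The call in UA+DSS was lost without UA+DSS 1, UA+DSS 2 or UA+DSS 3 (edgeR adjusted p = 0.0747, 0.0930 and 0.0778). Set against DSS, DSS+UA had a log2 fold change of -1.32 (SE 0.42, edgeR adjusted p = 0.0729). It was called without DSS 1 or DSS 3 (edgeR adjusted p = 0.0473 and 0.0346), and without DSS 2 it was -0.38 (edgeR adjusted p = 0.196). The DSS+UA libraries lay between those of Con and those of DSS, and their log2 difference from Con was 0.48 (SE 0.42, edgeR adjusted p = 0.438).

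Il17a (ENSMUSG00000025929, chr1:20730905-20734496, plus strand), the founding cytokine of the family, was at or near 0 in Con. Its counts there were 0, 0 and 3, and in DSS they were 13, 66 and 5. These are 0.623, 3.30 and 0.262 CPM in DSS, against at most 0.160 CPM in Con. The lowest DSS library lay above the highest Con library, and DSS 2 held 78.8% of the summed DSS level. Over the group sums of 84 and 3 counts the ratio was 26.2 (95% counting interval 8.67 to 130), and 8.44 (2.46 to 44.7) without DSS 2. With the spread between mice the difference was not called (log2 fold change 4.54, SE 1.69, edgeR adjusted p = 0.0689), although DESeq2 called it (adjusted p = 0.0255). In UA+DSS only the first library held reads, with 7 counts (0.449 CPM), and the other two had 0. In DSS+UA the libraries held 2, 35 and 6 counts (0.105, 2.16 and 0.332 CPM). The log2 fold changes from DSS were -3.23 (SE 1.51, edgeR adjusted p = 0.156) in UA+DSS and -0.71 (SE 1.25, edgeR adjusted p = 0.736) in DSS+UA. Both groups overlapped DSS.

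Il17f (ENSMUSG00000041872, chr1:20777146-20790617, minus strand), the neighbour of Il17a on chromosome 1, had 1 count in each Con library. In DSS it had 22, 37 and 1 counts, or 1.05, 1.85 and 0.0525 CPM, so that DSS 3 lay at the Con level. The ratio of the group sums of 60 and 3 counts was 18.7 (95% counting interval 6.11 to 93.4). The gain in DSS was called (log2 fold change 4.05, SE 1.31, edgeR adjusted p = 0.0416), by a margin that 6 of 14 alternatives kept. The call was lost without any one Con library, DSS 1 or DSS 2 (edgeR adjusted p = 0.0798 to 0.118). UA+DSS again had reads in its first library alone, 5 counts or 0.320 CPM. DSS+UA had 9, 18 and 5 counts (0.474, 1.11 and 0.277 CPM), each above all 3 Con libraries. From DSS, the log2 fold change was -3.20 in UA+DSS (SE 1.22, edgeR adjusted p = 0.0885) and -0.68 in DSS+UA (SE 0.99, edgeR adjusted p = 0.675). The first was called without DSS 3 or without UA+DSS 1 (edgeR adjusted p = 0.0276 and 0.0488). Against Con, the log2 fold change of DSS+UA was 3.37 (SE 1.35, edgeR adjusted p = 0.0977).

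Il22 (ENSMUSG00000074695, chr10:118204942-118210047, plus strand), the epithelial repair cytokine, had no count in any Con library. DSS 1 held 201 counts, DSS 2 held 21 and DSS 3 held 2, or 9.64, 1.05 and 0.105 CPM, so that 1 mouse carried 89.3% of the summed DSS level. Against a floor of 3 counts over the Con group, Il22 was at least 69.9-fold higher in DSS, and at least 11.01-fold higher without DSS 1. It was called as raised (edgeR adjusted p = 0.0334), and 7 of 14 alternatives called it. Without DSS 1 or without any one Con library it was not (edgeR adjusted p = 0.0662 to 0.0831). UA+DSS had 10, 0 and 0 counts, with 0.641 CPM in its first library. DSS+UA had 10, 20 and 15 counts, or 0.526, 1.24 and 0.831 CPM, and varied least among the groups with reads. The DSS+UA level was at least 15.8-fold above the Con floor (edgeR adjusted p = 0.107). From DSS, the log2 fold changes were -4.09 in UA+DSS (SE 1.65, edgeR adjusted p = 0.117) and -2.06 in DSS+UA (SE 1.42, edgeR adjusted p = 0.364). Without DSS 3 the UA+DSS difference was called (edgeR adjusted p = 0.0482), and without DSS 1 it was -1.48 (edgeR adjusted p = 0.537). Without DSS 1 the sign of the DSS+UA difference turned, to 0.57.

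UA+DSS 1 was the only library of its group with reads of Il17a, Il17f or Il22. The 3 cytokines did not peak in the same DSS mouse. Il22 was highest in DSS 1 and Il17a and Il17f in DSS 2, while in DSS+UA all 3 were highest in the second library.

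Il22ra1 (ENSMUSG00000037157, chr4:135728172-135752140, plus strand), the signalling receptor chain of epithelial cells, was not called in any comparison of the full fit. It stood at 6.51, 39.2 and 31.8 CPM in Con, where the first library lay far below the other two. DSS held 13.4, 10.99 and 21.9 CPM, UA+DSS 30.6, 31.3 and 33.3, and DSS+UA 10.9, 26.9 and 22.7. The UA+DSS libraries lay above all those of DSS and DSS+UA and within the range of Con. The log2 difference of UA+DSS from DSS was 1.03 (SE 0.55, edgeR adjusted p = 0.207), and that of DSS from Con was -0.74 (SE 0.54, edgeR adjusted p = 0.331). Without Con 1 the loss in DSS was called, with edgeR adjusted p = 0.0401. DSS+UA differed from DSS by 0.38 (SE 0.54, edgeR adjusted p = 0.670).

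Il22ra2 (ENSMUSG00000039760, chr10:19621998-19634681, plus strand), the soluble IL-22 receptor, varied widely among the mice of a group. Its levels were 7.90, 4.66 and 4.59 CPM in Con, 7.001, 1.30 and 0.525 in DSS, 6.47, 4.24 and 2.97 in UA+DSS, and 1.95, 0.556 and 4.43 in DSS+UA. DSS 1 and UA+DSS 1 lay with Con, and the other 2 DSS libraries lay below all Con and UA+DSS libraries. No comparison called it in the fit of all libraries (DSS against Con, log2 fold change -0.95, SE 0.85, edgeR adjusted p = 0.424). DSS against Con was called without DSS 1 (edgeR adjusted p = 0.0449).

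**Figure D2:**
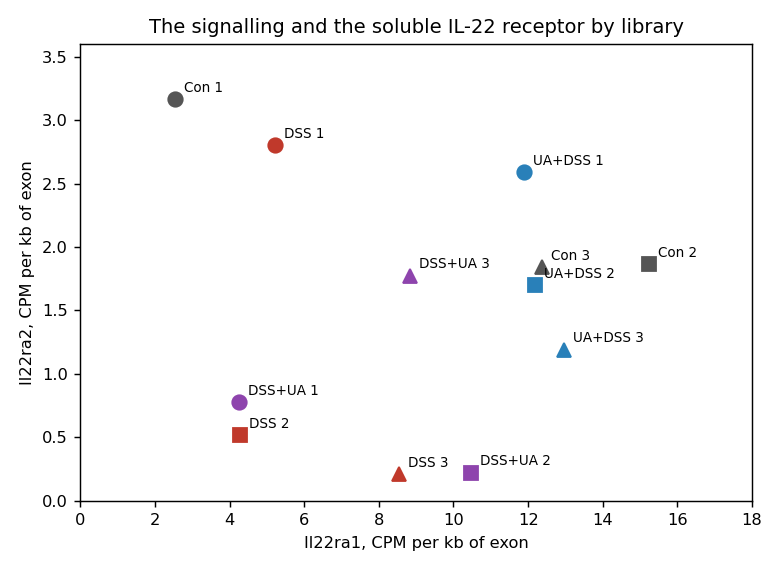
Il22ra2 against Il22ra1 in each library, both in CPM per kb of exon on linear axes from 0, with colours for the 4 groups. Con 1 and DSS 1 lie at the upper left and DSS 3 and DSS+UA 2 along the bottom, with ratios from 0.0213 to 1.25.

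Per kb of exon, Il22ra1 exceeded Il22ra2 in 11 of 12 libraries. The ratio of Il22ra2 to Il22ra1 was 1.25 in Con 1 and 0.538 in DSS 1, and 0.0213 to 0.218 in the other 10. The lowest ratios were those of DSS+UA 2 and DSS 3. Con 1, with the highest ratio, was also the library with the highest position score.

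Il23a (ENSMUSG00000025383, chr10:128296139-128298752, minus strand), the p19 chain that defines interleukin 23, was high in a single mouse. Its counts were 15, 6 and 5 in Con (0.775, 0.333 and 0.267 CPM), and 1, 225 and 10 in DSS (0.0480, 11.2 and 0.525 CPM). DSS 2 held 95.2% of the summed DSS level, and DSS 1 lay below every Con library. The log2 fold change in DSS against Con was 3.08 (SE 1.49, edgeR adjusted p = 0.146), and without DSS 2 it was -0.70 (edgeR adjusted p = 0.706). UA+DSS had 0, 2 and 4 counts (0, 0.125 and 0.212 CPM), all below the lowest Con library. DSS+UA had 1, 4 and 23 counts (0.0526, 0.247 and 1.27 CPM). From DSS, the log2 fold change was -4.999 in UA+DSS (SE 1.76, edgeR adjusted p = 0.0699) and -2.89 in DSS+UA (SE 1.48, edgeR adjusted p = 0.216). DESeq2 called the first (adjusted p = 0.00510), and so did edgeR without DSS 1 or DSS 3 (adjusted p = 0.0409 and 0.0479). Without DSS 2 neither was called, and the values were -1.23 in UA+DSS (edgeR adjusted p = 0.599) and 0.89 in DSS+UA.

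Il12b (ENSMUSG00000004296, chr11:44400063-44414033, plus strand) encodes the p40 chain that interleukin 23 shares with interleukin 12. It had 0, 0 and 8 counts in Con, 26, 11 and 5 in DSS, 4, 2 and 3 in UA+DSS, and 7, 4 and 8 in DSS+UA. In CPM the DSS libraries held 1.25, 0.550 and 0.262, and the UA+DSS libraries 0.256, 0.125 and 0.159, so that these groups did not overlap, by a margin of under 1 count. DSS 1, with the most Il12b, had 1 count of Il23a, and DSS 2, with the most Il23a, had 11 of Il12b. In the fit without a low-count filter the log2 fold change was 2.23 in DSS against Con (edgeR adjusted p = 0.169) and -1.91 in UA+DSS against DSS (edgeR adjusted p = 0.291).

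Il23r (ENSMUSG00000049093, chr6:67422932-67491855, minus strand), the receptor chain of the responding lymphocytes, was near the limit of detection in every group. It had 5, 5 and 0 counts in Con, 8, 5 and 4 in DSS, 9, 3 and 0 in UA+DSS, and 10, 4 and 5 in DSS+UA. The group means were 0.178 to 0.350 CPM and the groups overlapped in all 6 comparisons. Without the filter its log2 fold change in DSS against Con was 0.66 (edgeR adjusted p = 0.721).

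**Figure D3:**
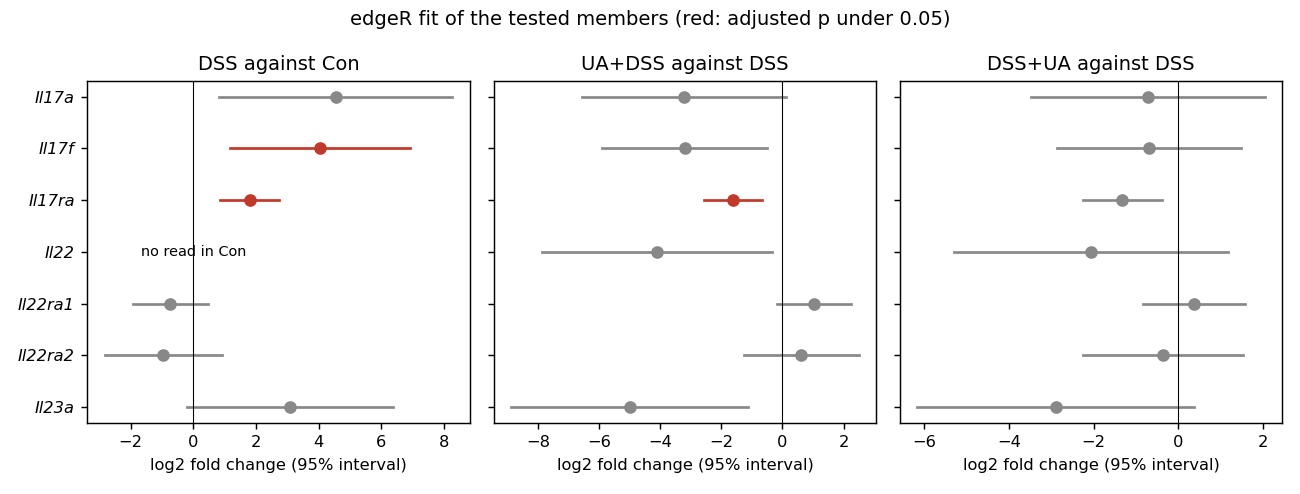
Log2 fold change with its 95% interval for the 7 tested members in 3 comparisons (edgeR), red where the adjusted p is under 0.05. Il17ra and Il17f are red in DSS against Con and Il17ra in UA+DSS against DSS, and Il22 has no point in the first panel because Con had no read, although its call there stands at adjusted p = 0.0334.

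Levels of different members can be compared per length. In DSS, the order of mean levels was Il17ra (8.55 CPM per kb of exon), Il22ra1 (6.01), Il22 (3.24), Il23a (1.75), Il17a (1.19), Il22ra2 (1.18), Il17f (0.487), Il12b (0.349) and Il23r (0.113). The receptor chains Il17ra and Il22ra1 led on the mean, but the order did not hold in each mouse. In DSS 1, Il22 lay above both receptor chains. Il17ra led through DSS 2, while Il22ra1 lay above it in DSS 1 and DSS 3. Because of single mice the ranges of Il22 and Il23a reached those of Il17ra and Il22ra1, and those of Il22, Il23a, Il17a and Il22ra2 overlapped. In Con the order began with Il22ra1 (10.1), Il17ra (2.46) and Il22ra2 (2.29), and no cytokine chain passed 0.204. In UA+DSS, Il22ra1 was at 12.4, Il17ra at 2.80, Il22ra2 at 1.83 and every cytokine chain at or below 0.192. In DSS+UA, Il22ra1 was at 7.85 and Il17ra at 3.43, and the means of Il22 (0.779) and Il17a (0.740) came close to that of Il22ra2 (0.925). By library they did not, since Il17a was at 0.0899, 1.85 and 0.284 in DSS+UA 1 to 3 and Il22ra2 at 0.779, 0.223 and 1.77. Il17a exceeded Il17f per length in DSS 1, 2 and 3, with ratios of 1.02, 3.08 and 8.63, the last of which rests on 1 count of Il17f. The ratio was 0.384 in DSS+UA 1, and Il17a had no count in Con 1 and Con 2.

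The remaining comparisons called no member by edgeR. Between UA+DSS and Con, 0.00566% of all genes were called and 0 of 7 members, with 2132 genes at an unadjusted p under 0.05. DESeq2 called 0 members there, beside 374 of all genes. By the edgeR test 18.1% of all genes were called in DSS+UA against Con and 0 of 7 members, with 6360 genes at an unadjusted p under 0.05. DESeq2 called 1 member there and the edgeR fit of the 2 groups alone called 2, both raised, beside 4661 and 1996 of all genes. Between the UA groups, UA+DSS against DSS+UA, 16.8% of all genes and 0 of 7 members were called, with 5967 genes at an unadjusted p under 0.05. The log2 fold changes of Il17a and Il17f in this comparison were -2.52 (SE 1.54, edgeR adjusted p = 0.274) and -2.52 (SE 1.26, edgeR adjusted p = 0.183). For DSS+UA against DSS, 5274 genes had an unadjusted p under 0.05, Il17ra among them.

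The partners of the receptors were read first among the 88 other genes of the pathway, which stood in 9 lists and of which 79 were tested. Il17rc, which pairs with Il17ra, was lowered where Il17ra was raised. Il17rc was at 139 ± 16.2 CPM in Con and 66.2 ± 21.3 in DSS (SD, n = 3), a log2 fold change of -1.06 (SE 0.28, edgeR adjusted p = 0.0180). It was higher than in DSS in UA+DSS (132 ± 1.01 CPM, log2 fold change 0.99, edgeR adjusted p = 0.0321) and in DSS+UA (145 ± 53.1 CPM, 1.12, edgeR adjusted p = 0.0390). Each of these calls was lost when single libraries were left out (highest adjusted p 0.0534, 0.0965 and 0.124). Il17re, the receptor chain for IL-17C, fell by 1.69 on the log2 scale in DSS against Con (edgeR adjusted p = 0.00711) and rose by 1.44 in UA+DSS against DSS (edgeR adjusted p = 0.0197). The latter was lost without UA+DSS 2 (adjusted p = 0.0829). Of the 5 tested genes of the IL-17 family list, these 2 were called in DSS against Con and in UA+DSS against DSS.

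Il10rb, the partner of Il22ra1, stayed between 60.0 and 65.5 CPM on group average and was not called (log2 fold change in DSS against Con 0.09, SE 0.24, edgeR adjusted p = 0.804). Il12rb1, the partner of Il23r, was at 1.38 ± 0.584 CPM in Con and 3.31 ± 0.722 in DSS (SD, n = 3, log2 fold change 1.26, SE 0.64, edgeR adjusted p = 0.159).

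The lists were written with earlier results of these data known, and their counts stand beside the shares of all genes called. These were 13.9% raised and 12.6% lowered in DSS against Con, 8.21% and 10.5% in UA+DSS against DSS, and 2.54% and 5.0% in DSS+UA against DSS. Of the genes that IL-17 induces, 10 of 11 tested were raised and 0 lowered in DSS against Con. The median log2 fold change was 8.43, which is the same with Cxcl2 at the bound its Con counts of 0 allow. This median is the fitted value of Il6, which had 2 counts over the Con group, so its size is uncertain. The median of all genes was -0.034. Cxcl1, a neutrophil chemokine, rose from 0.477 ± 0.334 to 47.8 ± 26.3 CPM (SD, n = 3, log2 fold change 6.63, edgeR adjusted p = 0.00234). S100a9, a calprotectin chain abundant in neutrophils, went from 2 counts in Con to 161255 in DSS, a ratio of 75515 (95% counting interval 20904 to 623557), and DSS 2 held 149905 of the counts. UA+DSS against DSS had 10 of 11 lowered (median -5.28 against -0.019 for all genes), among them Cxcl1 (-4.62, edgeR adjusted p = 0.0101) and Cxcl5, a chemokine of the same class (-5.28, edgeR adjusted p = 0.0140, and 0.0527 without UA+DSS 2). The list had 0 of 11 called in DSS+UA against DSS (median -3.02 against 0.020). Ccl20, the ligand of the Th17 receptor Ccr6, was called in none of these comparisons (log2 fold change in DSS against Con 0.089, edgeR adjusted p = 0.949). Ccl20, Cxcl2, Il6, Csf3 and Sprr2h are named after their values were seen.

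Of the genes listed as induced by IL-22, 7 of 15 tested were raised in DSS against Con and 0 lowered (median log2 fold change 1.92). In UA+DSS against DSS 7 were lowered, 0 raised and 8 not called (median -1.10). In DSS+UA against DSS 1 was lowered (median -0.27), a share near the 5.0% of all genes. The 8 not called in UA+DSS against DSS are named after their values were seen. Of them, Reg3b (3.19), Reg3g (3.89), Duox2 (1.24), Duoxa2 (0.82), Fut2 (0.81) and Saa1 (0.80) lay above 0, and Muc1 (-1.10) and Pla2g5 (-0.33) below. Osmr, the oncostatin M receptor chain, went from 10.5 ± 1.58 CPM in Con to 51.8 ± 4.75 in DSS (SD, n = 3, edgeR adjusted p = 0.000236). It was at 19.6 ± 2.59 in UA+DSS and 18.1 ± 1.78 in DSS+UA (edgeR adjusted p = 0.00501 and 0.00333 against DSS), and the libraries with UA did not overlap those of DSS. Socs3, the feedback inhibitor of STAT3, rose by 4.95 on the log2 scale in DSS against Con (edgeR adjusted p = 0.00242) and fell by 3.08 in UA+DSS against DSS (edgeR adjusted p = 0.0147, and 0.0683 without UA+DSS 2). Socs3 was at 215, 963 and 172 CPM in DSS 1 to 3. Hif1a, the hypoxia factor, fell by 1.83 in UA+DSS against DSS (edgeR adjusted p = 0.0114), and its DSS+UA difference from DSS was -0.27 (edgeR adjusted p = 0.622).

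**Figure D4:**
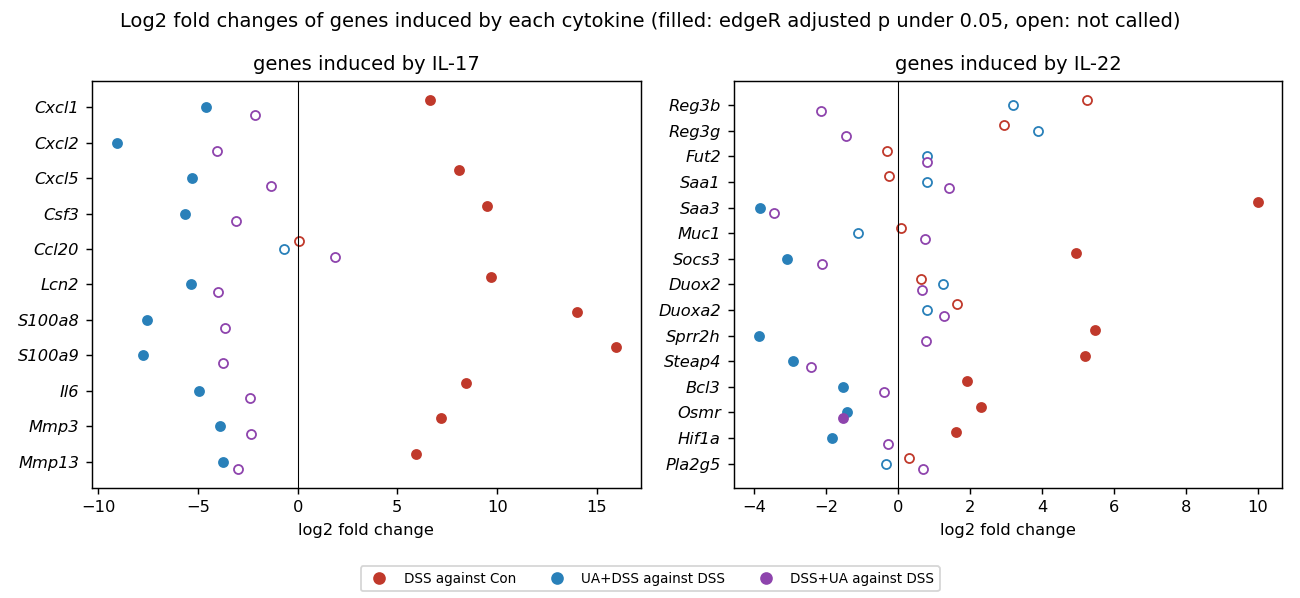
Log2 fold change of each tested gene of the IL-17 list (left) and the IL-22 list (right) in 3 comparisons, filled where the edgeR adjusted p is under 0.05. The IL-17 list lies above 0 in DSS against Con and below 0 in UA+DSS against DSS, with Ccl20 not called in either. The IL-22 list holds 7 filled points in each of these comparisons. Cxcl2 has no point in DSS against Con because Con had no read, while S100a9, Csf3, Il6 and Sprr2h are fitted values over 2 counts each in Con.

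Of 6 tested kinases and STATs 3 were raised in DSS against Con and 2 lowered in UA+DSS against DSS. Stat3, through which IL-22 and interleukin 23 signal, was at 107 ± 9.87 CPM in Con and 302 ± 43.9 in DSS (SD, n = 3, log2 fold change 1.503, edgeR adjusted p = 0.000868), and it fell by 0.81 in UA+DSS against DSS (edgeR adjusted p = 0.0113, and 0.0602 without UA+DSS 2). Jak1, a kinase of the IL-22 receptor, rose by 0.88 in DSS against Con (edgeR adjusted p = 0.00431). Of 11 adaptors and feedback genes of the IL-17 receptor 4 were raised in DSS. Cebpb, a factor downstream of it, rose by 4.16 (edgeR adjusted p = 0.00250), fell by 3.46 in UA+DSS against DSS (edgeR adjusted p = 0.00997) and by 2.38 in DSS+UA against DSS (edgeR adjusted p = 0.0352). Cebpb was at 109, 508 and 90.7 CPM in DSS 1 to 3, so that DSS 2 weighs on these sizes. The Cebpb calls were lost without UA+DSS 2 (adjusted p = 0.0527) and without DSS+UA 1, DSS+UA 2 or DSS+UA 3 (0.0681, 0.101 and 0.121). Cebpd, its relative, rose by 2.28 in DSS against Con (edgeR adjusted p = 0.00798). Traf4, an adaptor that restrains IL-17 signalling, rose by 0.60 in DSS+UA against DSS (edgeR adjusted p = 0.0283), a call lost without DSS 2, DSS+UA 2 or DSS+UA 3 (adjusted p = 0.0683, 0.0918 and 0.0928).

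Of 5 tested genes of the IL-20 and IL-10 list 3 were raised in DSS against Con and 3 lowered in UA+DSS against DSS. Il20ra, a receptor chain for IL-20 and related cytokines, went from 1 count in Con to 90 in DSS, a ratio of 84.3 (95% counting interval 14.7 to 3366). It fell by 3.04 on the log2 scale in UA+DSS and by 2.85 in DSS+UA against DSS (edgeR adjusted p = 0.0148 and 0.0303). The Il20ra calls were lost without UA+DSS 2 (adjusted p = 0.0679) and without DSS 2, DSS+UA 2 or DSS+UA 3 (0.0874, 0.104 and 0.116). Il10ra, the ligand-binding chain for IL-10, rose by 2.997 in DSS against Con (edgeR adjusted p = 0.00997) and fell by 2.55 in UA+DSS against DSS (edgeR adjusted p = 0.0248), which was lost without DSS 2, UA+DSS 2 or UA+DSS 3 (adjusted p = 0.0716, 0.101 and 0.0827). Il10ra was at 31.2, 99.8 and 17.3 CPM in DSS 1 to 3. Of 5 tested relatives of interleukin 12, 4 were raised in DSS. Il27 went from 0 counts in Con to 89, at least 27.8-fold higher (edgeR adjusted p = 0.00894). Il27ra, its receptor, rose by 2.21 (edgeR adjusted p = 0.0170), which was lost without Con 2, Con 3 or DSS 2 (adjusted p = 0.0558, 0.0515 and 0.0651). Ebi3, its partner chain, rose by 2.80 (edgeR adjusted p = 0.0240), a call lost without Con 1, Con 2 or DSS 2 (adjusted p = 0.0528, 0.0794 and 0.121), and fell by 2.59 in UA+DSS against DSS (edgeR adjusted p = 0.0406). That was lost without DSS 2 (adjusted p = 0.222), UA+DSS 1 (0.0709), UA+DSS 2 (0.135) or UA+DSS 3 (0.122).

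Cytokines that favour type 3 lymphocytes showed 6 of 8 raised and 1 lowered in DSS against Con (median log2 fold change 6.62), and 6 lowered and 1 raised in UA+DSS against DSS (median -4.85). Il1b, which acts with interleukin 23 on these lymphocytes, rose from 0.854 ± 0.649 to 1090 ± 1656 CPM (SD, n = 3, edgeR adjusted p = 0.00332), with 3003 CPM in DSS 2. Osm, oncostatin M, fell by 6.84 in UA+DSS against DSS (edgeR adjusted p = 0.00998, and 0.0548 without UA+DSS 2). The size of this fall leans on DSS 2, since Osm was at 16.5, 152 and 13.6 CPM in DSS 1 to 3. Tgfb1 rose by 2.11 in DSS against Con and fell by 1.97 in UA+DSS and 1.12 in DSS+UA against DSS (edgeR adjusted p = 0.00167, 0.00725 and 0.0366). The last of these was lost without any one library other than DSS 3 (adjusted p = 0.0516 to 0.127). The gene that went the other way was Tnfsf15, lowered by 1.26 in DSS against Con and raised by 1.22 in UA+DSS against DSS (edgeR adjusted p = 0.0183 and 0.0293). The first was lost without Con 2, DSS 1 or DSS 2 (adjusted p = 0.0630, 0.0620 and 0.0562), and the second without any one library other than DSS 3 (0.0502 to 0.0933).

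Regulators and receptors of type 3 lymphocytes gave 7 of 14 raised and 1 lowered in DSS against Con, 2 raised and 3 lowered in UA+DSS against DSS, and 6 lowered in DSS+UA against DSS. Il1r1, the receptor of IL-1, was at 42.8 ± 4.18 CPM in Con, 125 ± 18.1 in DSS, 44.5 ± 0.0198 in UA+DSS and 26.3 ± 3.84 in DSS+UA (SD, n = 3), with edgeR adjusted p = 0.000833, 0.00378 and 0.000268 in the 3 comparisons. Batf, a factor of Th17 differentiation, rose by 4.21 in DSS against Con (edgeR adjusted p = 0.00429), and Runx1, a factor of lymphocyte development, fell by 0.80 in UA+DSS against DSS (edgeR adjusted p = 0.0147). Batf was at 8.73, 42.8 and 5.56 CPM in DSS 1 to 3. The Runx1 call was lost without UA+DSS 2 or UA+DSS 3 (adjusted p = 0.0602 and 0.0513). Tox, a factor of lymphoid cell development, fell by 1.06 in DSS against Con and rose by 1.08 in UA+DSS against DSS (edgeR adjusted p = 0.0159 and 0.0214). These calls of Tox were lost without Con 2 or DSS 1 (adjusted p = 0.0523 and 0.0526) and without DSS 1, UA+DSS 2 or UA+DSS 3 (0.0677, 0.0878 and 0.0582). Rora, a nuclear receptor, fell by 1.70 in DSS+UA against DSS (edgeR adjusted p = 0.0134, and 0.0894 without DSS+UA 3).

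**Figure D5:**
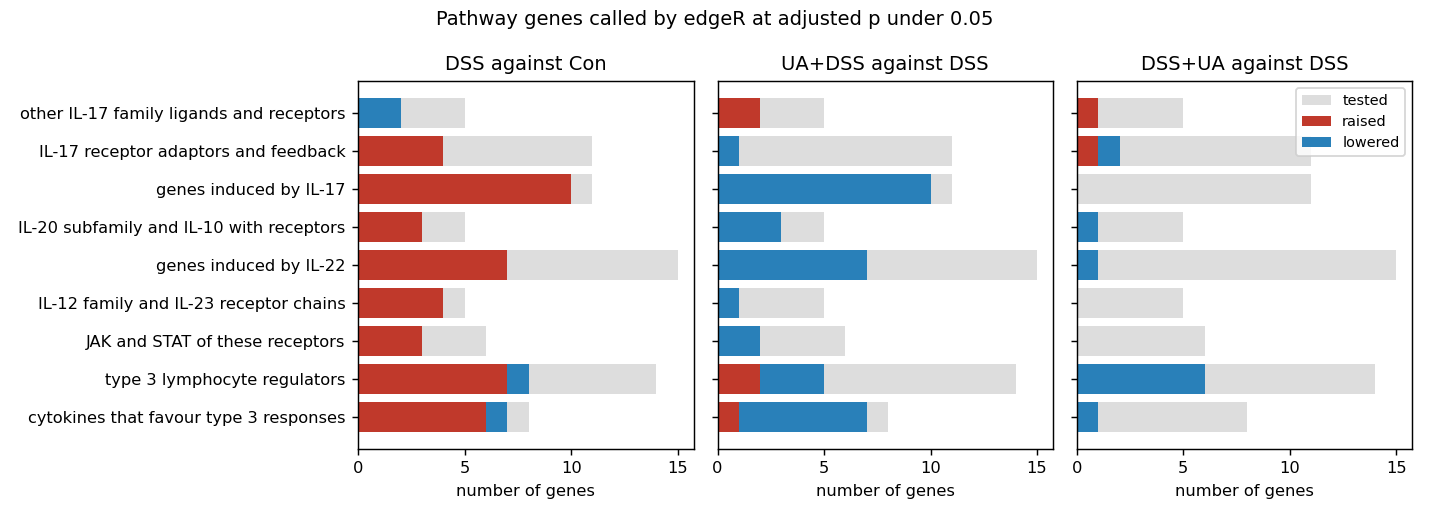
Number of genes in each of the 9 pathway lists that were tested (grey) and called raised (red) or lowered (blue) by edgeR, in 3 comparisons. Of the called genes, 43 of 47 are red in DSS against Con, 32 of 37 are blue in UA+DSS against DSS, and 10 of 12 are blue in DSS+UA against DSS.

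Over all lists 47 of 79 tested pathway genes were called in DSS against Con, 43 raised and 4 lowered, which is 59.5% beside 26.5% of all genes. The count in UA+DSS against DSS was 37 (46.8% beside 18.7%), 5 raised and 32 lowered. The count in DSS+UA against DSS was 12 (15.2% beside 7.54%), 2 raised and 10 lowered. The lists were written with earlier results of these data known, so the excess over all genes is a description only. The UA+DSS count was 23 without DSS 2, 5 without UA+DSS 2, 21 without UA+DSS 3 and 1 with the position score in the fit. Calls over all genes fell as well, from 3300 to 1813, 227, 1490 and 3 in these fits. The DSS+UA count was 5 without DSS 2, 3 without DSS+UA 2 and 2 without DSS+UA 3, where calls over all genes fell from 1331 to 399, 110 and 25.

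Markers of the cells that could carry these transcripts moved with the groups, and their part in the results was not tested. The 7 T cell markers summed to 20.5 to 31.3 CPM in Con, 40.7 to 127 in DSS, 28.1 to 94.9 in UA+DSS and 33.3 to 83.0 in DSS+UA, and 5 of 7 were called as raised in DSS against Con. DSS 3, with the fewest reads of Il17f and Il22 in its group, had the lowest T cell sum there. By edgeR 0 of 7 were called in UA+DSS or DSS+UA against DSS. The T cell sum of UA+DSS 2 was 72.2 CPM with 0 counts of Il17a, Il17f and Il22. The 6 gamma delta T cell markers summed to 39.3 to 65.0 CPM in Con, 38.3 to 47.4 in DSS, 62.5 to 80.1 in UA+DSS and 34.5 to 49.0 in DSS+UA. The 7 markers of group 3 innate lymphoid cells summed to 85.7 to 150 CPM in Con, 92.6 to 127 in DSS, 145 to 212 in UA+DSS and 72.3 to 84.6 in DSS+UA, with 2 of 7 raised and 2 lowered in UA+DSS against DSS. Both sums were thus highest where Il17a, Il17f and Il22 had fewest reads among the DSS-treated groups. The 7 neutrophil markers, which include S100a8 and S100a9 of the IL-17 list, summed to 9.25 to 114 CPM in Con, 884 to 17907 in DSS, 27.0 to 121 in UA+DSS and 398 to 1013 in DSS+UA. The 8 epithelial markers, which bear on Il22ra1, summed to 11335 to 23490 CPM in Con, 5667 to 12243 in DSS, 21833 to 27078 in UA+DSS and 13068 to 24887 in DSS+UA. The 7 markers of macrophages and monocytes, cells that make interleukin 23, summed to 156 to 384 CPM in Con, 1043 to 1706 in DSS, 253 to 570 in UA+DSS and 345 to 970 in DSS+UA. Of these 7, edgeR called 5 as raised in DSS against Con, 6 as lowered in UA+DSS against DSS and 0 in DSS+UA against DSS. DSS 2, where Il23a was high, was at 1170 CPM. Stromal markers moved with Osmr, Il1r1 and Tgfb1. The 6 fibroblast markers summed to 1068 to 1822 CPM in Con, 3187 to 6881 in DSS, 608 to 1635 in UA+DSS and 948 to 2339 in DSS+UA, with 5 of 6 raised in DSS against Con and 4 and 2 lowered in UA+DSS and DSS+UA against DSS. The 5 endothelial markers summed to 144 to 191 CPM in Con, 248 to 444 in DSS, 117 to 146 in UA+DSS and 104 to 113 in DSS+UA, with 3 of 5 raised in DSS against Con and 4 and 5 lowered in UA+DSS and DSS+UA against DSS. None of the markers of these 8 lists was at 0 in any group.

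The genes whose log2 CPM ran most like a member over the 12 libraries are given as a description, since the libraries share their groups. For Il17a these were Gbp5 (Pearson r = 0.949, Spearman rho = 0.968), Lst1 (0.947 and 0.904) and Gm16685 (0.933 and 0.943). Il17f was most like Sit1 (r = 0.956), Bcl2a1a (0.946) and Cd52 (0.941). Il17ra was most like Sod2 (r = 0.982), Sh2d3c (0.978) and Kctd20 (0.977), and Il22 like Tbc1d10a (0.923), Gm13077 (0.917) and Rnase6 (0.913). Il22ra1 followed Tmem167b (r = 0.985), Mfsd9 (0.977) and Ptprh (0.970), Il22ra2 followed Rhbdd2 (0.869), Gm26917 (0.841) and Zfp873 (0.833), and Il23a followed Sec14l2 (0.924), Rffl (0.916) and Tm4sf5 (0.909). Among the members themselves, Il17a and Il17f had r = 0.888 (rho = 0.849) and Il22 and Il17f r = 0.876 (rho = 0.864). Il17ra and Il23a had r = 0.707 but rho = 0.147, and both were highest in DSS 2. Il22ra1 and Il22ra2 had r = -0.049.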

How the data were processed

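RNA of 12 mouse colons was sequenced, and the deposited values used here are raw read counts per gene, 1 file per library. Per the labels, libraries were made with a TruSeq kit, and the tools named are FastQC, HISAT2 and Cuffdiff with build GRCm38. The study's methods credit the read counts to HISAT2, and how strand and reads with several matches were treated was not given in the sources used here. Genes without a name (123) held 0.0297% of the counts. Total counts were 15566216 to 19498383, and intervals and floors cover counting error only.

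All 12 libraries were fitted together in edgeR 4.0.16 (R 4.3.3) with TMM factors (0.871 to 1.09), filterByExpr, a robust quasi-likelihood fit (common BCV 0.352) and Benjamini-Hochberg adjustment over 17658 genes, with a threshold of 0.05. DESeq2 1.42.0 and limma 3.58.1 (voom) were alternatives. A difference from a group with 0 counts was set against a floor of 3 counts over that group, and ratios with few counts carry exact 95% binomial intervals. The highest and lowest chi-square per degree of freedom over the 12 pairs of libraries of the same group were 230.5 and 20.7, so that no such pair was a duplicate. Likeness was computed on log2 CPM (prior count 2).

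The members and lists were chosen with earlier results of these data known. Named were all members, Iltifb, Il17rc, Il10rb, Il12rb1, up to 2 raised and 2 lowered genes with the smallest p per list and comparison, the 3 genes most like each tested member, and defining markers of a cell type whose sum moved with a result. Sequences came from RefSeq (GRCm38.p6) and GENCODE (GRCm38). A gene that the naming rule also covers is not reported here.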

Additional observations from a re-analysis of the deposited data

Results flagged for a closer look

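By the edgeR test of UA+DSS against DSS+UA, 12 of 79 tested pathway genes were called, 6 raised and 6 lowered. This is 15.2% beside 16.8% of all genes, so the pathway did not stand out. Of the pathway genes named, 9 were called, and no member was. These 9 had been named for small p in comparisons that share libraries with this one. Lower in UA+DSS were the chemokines Cxcl1 (log2 fold change -2.49, edgeR adjusted p = 0.0473) and Cxcl5 (-3.94, adjusted p = 0.0276), and oncostatin M, Osm (-3.88, adjusted p = 0.0357). Hif1a (-1.56, edgeR adjusted p = 0.0154) and Traf4 (-0.58, adjusted p = 0.0164) were lower as well. Higher in UA+DSS were Il1r1 (0.76, edgeR adjusted p = 0.0115), Rora (1.23, adjusted p = 0.0168), Tnfsf15 (1.22, adjusted p = 0.0311) and Tox (1.06, adjusted p = 0.0238). The call of Cxcl1 was lost without any one library of the UA groups (edgeR adjusted p = 0.0579 to 0.152), with the replicate block (0.0626) and with limma-voom (0.087). Calls were also lost when single libraries of these groups were left out for Cxcl5, Osm, Tnfsf15, Tox, Rora and Traf4, with highest edgeR adjusted p of 0.0843, 0.125, 0.093, 0.0909, 0.0689 and 0.0731. The calls of Hif1a and Il1r1 were lost in none of these. With the position score as a covariate the log2 fold changes kept their signs and ranged from -3.45 for Osm to 0.84 for Rora, and the edgeR adjusted p was 0.454 for Traf4 and 0.906 for Tnfsf15, the lowest and highest of the 9. The scores of the UA groups do not overlap, so that position and schedule cannot be told apart.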

How the results depend on the processing

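Of 605 alternative values of the members' fold changes 542 kept their direction and side of the threshold, 22 lost a call, 15 gained one and 26 reversed. The causes were not tested. Members called in DSS against Con (3 of 7) were 1 of the 2 tested with at least 10 counts in every sample. Il17f and Il22 had too few counts in Con to enter that fit. Members called were 0 with the 2 groups alone, 1 with limma-voom and 1 to 3 with a library left out. Those fits called 2002, 4607 and 2966 to 4295 of all genes, against 4688 in the main fit. In UA+DSS against DSS (1) members called were 0 with the 2 groups alone, with the position score and with limma-voom. They were 2 with DESeq2, and 0 to 4 with a library left out. In the same order these fits called 1920, 3, 3082, 4497 and 227 to 3641 of all genes. DESeq2, for DSS+UA against DSS (0), called 1, and 0 to 1 were called with a library left out. Of all genes DESeq2 called 3107 there, and the fits without a library 25 to 1506. For DSS+UA against Con (0) the 2 groups alone gave 2 and DESeq2 1, beside 1996 and 4661 of all genes. Pathway genes called in DSS against Con (47 of 79) were 29 of the 57 tested with at least 10 counts, and 37 to 47 with a library left out. Those of UA+DSS against DSS (37 of 79) were 24 of 87 tested without a filter and 23 of 57 with at least 10 counts. They were 16 with the 2 groups alone, 1 with the position score, and 5 to 43 with a library left out. In the same order these fits called 2328, 3102, 1920, 3 and 227 to 3641 of all genes, against 3300 in the main fit. For DSS+UA against DSS (12) pathway genes called were 4 with the 2 groups alone, 4 with the position score and 28 with DESeq2. They were 2 to 18 with a library left out. In the same order these fits called 404, 199, 3107 and 25 to 1506 of all genes, against 1331 in the main fit.

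None of the reversed log2 values was called. In DSS against Con, Il23a was -0.70 to 3.69 with a library left out. For UA+DSS against DSS the position score gave 7.89 for Il22 and -0.74 for Il22ra1. In DSS+UA against DSS, leaving out a library gave -2.65 to 0.94 for Il17a, -1.38 to 0.15 for Il17f, -2.61 to 0.57 for Il22, -4.69 to 0.89 for Il23a and -1.21 to 1.34 for Il22ra2, which was 0.0018 with limma-voom. In UA+DSS against Con, leaving out a library gave -3.16 to 4.44 for Il17a, -3.16 to 1.45 for Il17f (-0.27 with limma-voom) and -0.16 to 0.73 for Il22ra1, and the position score gave -0.76 for Il22ra1 and 0.72 for Il22ra2. Il22 gave no value there without UA+DSS 1, since both groups then had 0 counts. For DSS+UA against Con, leaving out a library gave -0.82 to 0.074 for Il22ra1 (1.23 with the position score) and -1.61 to 0.80 for Il23a (-0.40 with the position score and -0.55 with limma-voom). Between the UA groups the position score gave 13.3 for Il22 and -1.99 for Il22ra1.

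Of 18 pairs of libraries with the same replicate number, 5 had deviations correlated over 0.1 (-0.216 to 0.187, median 0.041). Of 36 pairs with different numbers, 9 did (-0.289 to 0.240, median -0.023). The replicate number was therefore not used as a pairing, although so few libraries cannot exclude one. With the replicate number as a block, pathway genes called in DSS+UA against DSS were 7, beside 552 of all genes. With this block Il22ra2 in DSS+UA against DSS was 0.015 and Il23a in DSS+UA against Con was -0.42. Summing Il22 and Iltifb, an alternative chosen after seeing the data, changed no call of a member (Il22 in DSS against Con, edgeR adjusted p = 0.0310). At 1 count per 0.0480 to 0.0641 CPM, Il17a, Il17f, Il22, Il23r and Il12b were near the limit of detection in Con.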

Other observations

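The antimicrobial lectins Reg3b and Reg3g, genes that IL-22 induces, were singled out after their values were seen. Mean Reg3b levels were 7.08 CPM in Con, 269 in DSS, 2476 in UA+DSS and 60.8 in DSS+UA, and those of Reg3g were 5.11, 38.9, 580 and 14.2. None of their differences was called in DSS against Con or in UA+DSS or DSS+UA against DSS. In UA+DSS against DSS the log2 fold change was 3.19 for Reg3b (edgeR adjusted p = 0.211) and 3.89 for Reg3g (edgeR adjusted p = 0.110), while Il22 had 10, 0 and 0 counts in UA+DSS 1 to 3. In DSS against Con they were 5.25 (edgeR adjusted p = 0.0626) and 2.93 (edgeR adjusted p = 0.180). These genes are close paralogs, and how reads shared by both were counted is not given in the sources used here.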
